A study of Mus musculus with 6 samples.

Results

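Nuclear hormone receptors are transcription factors that small lipophilic ligands switch on or off, and 42 mouse genes of this family were followed in adipose tissue from mice lacking cavin-3. The 42 genes were a fixed list of receptors, ordered here into 10 classes by ligand and by relationship. Of these, 40 had a probe set annotated to that gene symbol alone and are called measured. The liver X receptor gene Nr1h2 and the photoreceptor orphan Nr2e3 were not analysed here. Adipose tissue RNA was taken from 3 cavin-3 KO mice and 3 WT littermates, all 10 weeks old, on standard chow and fasted for 6 hours, and each RNA was run on 1 Affymetrix Mouse Gene 1.0 ST array. The KO mice carry a germline deletion in every cell, made from 1 targeted embryonic stem cell clone in a C57BL/6 background, so no cell type was targeted in particular. Neither the labels nor the methods name the fat depot. The arrays are called KO1 to KO3 and WT1 to WT3 after their labels, and values are log2 intensities after RMA normalisation unless a fold is given.

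The receptors of this family share a DNA-binding and a ligand-binding domain. Thyroid hormone, retinoic acid, vitamin D, PPAR and liver X receptors mostly bind DNA as dimers with a retinoid X receptor (RXR). Steroid receptors act as homodimers, and the orphan receptors have no hormone ligand that is agreed on. In fat, receptors of the PPAR group and their RXR partners govern adipocyte formation and lipid storage, the glucocorticoid receptor governs the response to fasting and stress, and the liver X receptors govern cholesterol export. Whole tissue was measured, so fewer cells of a type and less RNA per cell cannot be told apart.

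Cavin-3 mRNA itself read 6.78 to 7.12 in KO fat and 10.05 to 10.90 in WT fat, a difference of -3.57 (0.0843-fold, limma, adjusted p = 0.0409). No KO array came near a WT array, but that adjusted p was lost with the methods' t-test, with the replicate number as a block and when any array but WT1 was left out (limma adjusted p = 0.0722 to 0.509 over the left-out arrays). Adipocyte markers were strong on every array, with means over 12 measured genes between 12.01 and 12.20. The arrays differed in other tissue signals that crossed the genotypes. KO3 and WT2 read 11.34 and 11.14 for Xist, the transcript of the inactive X chromosome, and the other 4 arrays read 3.70 to 6.30, while the methods state that male animals only were analysed. The same 2 arrays had the highest means of 15 skeletal muscle genes (8.74 and 8.64, against 5.62 to 6.53 on the other 4) and of 11 brown and beige adipocyte genes (7.43 and 7.40, against 6.07 to 6.45). Testis germ cell genes ran the other way on KO3 and WT2, with means over 11 genes of 4.86 and 4.90 against 5.51 to 6.30, and 8 of the 11 were lower there than on each of the other 4. KO2 and WT1 were above the other 4 arrays in all 9 smooth muscle genes (means 10.09 and 10.22, against 8.03 to 9.13) and in 3 of 12 epididymis genes, Crisp4, Adam7 and Spink8, while the other epididymis genes did not separate these arrays. WT2 alone was highest in all 10 urothelium genes, with a mean of 8.39 against 6.29 to 6.89. Liver genes leaned with genotype: all 14 measured ones were nominally higher in KO fat, with a median difference of 0.56, 1 at an unadjusted p under 0.05 and 0 at an adjusted p of 0.05 in limma. Their means were 6.08 to 7.22 in KO fat, highest on KO1, and 5.83 to 6.38 in WT fat, so the groups overlapped. The part of these signals in the receptor values was not tested, and they are given beside the receptors they touch.

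Of the 40 measured receptors, 28 were detected. A gene was called detected where its signal exceeded, on all 6 arrays, the 95th percentile of 1190 olfactory and vomeronasal receptor genes on the same array, which lay between 5.05 and 5.28. By the same rule 67.6% of all 19937 genes with 1 symbol were detected. Cavin-3 also passed this level on the KO arrays, at 6.78 to 7.12, although its gene is deleted there. A signal above the level therefore does not by itself show that a transcript is present. Among the receptors that passed, Esrrg, Nr4a3, Nr5a2 and Nr6a1 stayed below the lowest of these cavin-3 values, 6.78, on every array. Rarb, Nr3c2 and Nr2f1 were below the cavin-3 value of the same array on KO1 to KO3. On the WT arrays Rarb and Nr3c2 read at most 6.16 and 6.71, and Nr2f1 reached 7.07. The detected set held all 5 thyroid hormone and retinoic acid receptors, all 3 RXRs, 3 of 4 lipid-sensing receptors, 3 of 5 steroid receptors, 2 of 3 estrogen-related receptors, 2 of 3 clock-linked receptors, 5 of 7 NR2 orphans, all 3 NR4A receptors and 2 of 4 other orphans. It held none of the 3 vitamin D and xenobiotic receptors. Among the 28, 23 were also above the median of all probe sets on every array, and Rarb, Nr2f1, Esrrg, Nr4a3 and Nr5a2 were not.

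The 12 receptors that missed the level included several known best from other organs. The bile acid receptor Nr1h4, the constitutive androstane receptor Nr1i3, the estrogen receptor Esr2, the progesterone receptor Pgr, Esrrb, Rorb, Nr2e1, Hnf4g, Nr0b1 and Nr0b2 were below the level on all 6 arrays. Nr1h4, Nr1i3 and Nr0b2, which are abundant in liver, were thus under it also on KO1, where liver genes were highest. The vitamin D receptor Vdr was above it on 4 arrays and the pregnane X receptor Nr1i2 on 1 array. At signals under this level a low transcript cannot be separated from background. The brightness of a probe set also depends on its probes, so the levels of different receptors were not ranked against each other.

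**Figure D1:**
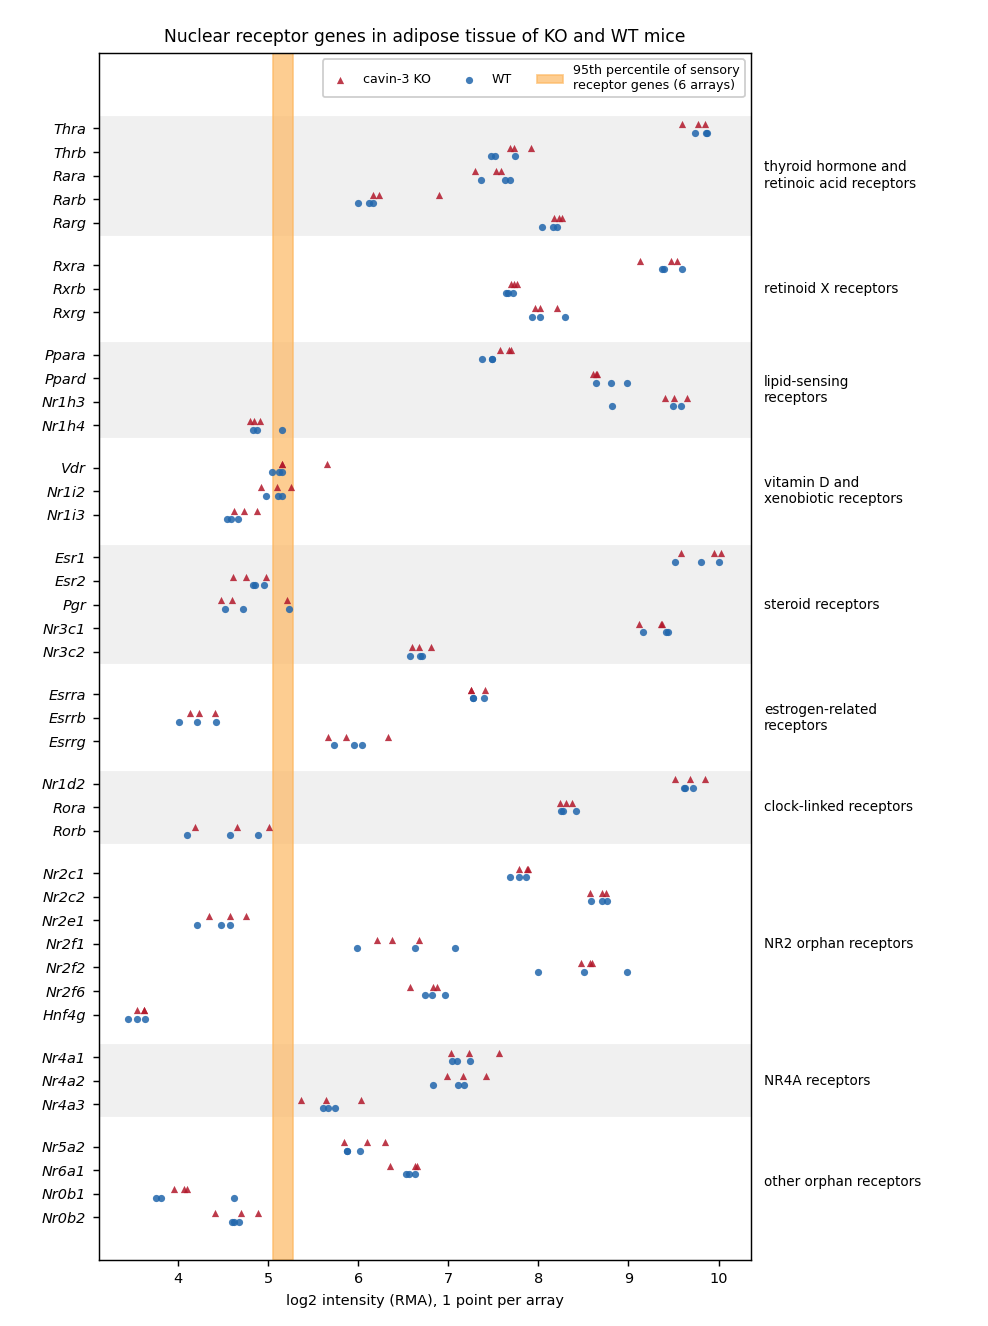
Log2 intensity of each of the 40 measured receptors on the 6 arrays, with KO arrays as triangles and WT arrays as circles, grouped by class. The orange band spans the 95th percentile of the sensory receptor genes on the 6 arrays (5.05 to 5.28). The 28 detected receptors lie to its right on every array, and KO and WT points overlap in all but Ppara and Rarb.

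Between genotypes, no receptor passed an adjusted p of 0.05 in limma, and every receptor had an adjusted p of 1.0. Over all 34760 probe sets 0.00575% passed, which is 2 probe sets. At an unadjusted p under 0.05 the count was 0 of 40 receptors, where 1.95% of all probe sets passed. The fold differences of KO over WT ran from 0.886 for Ppard to 1.26 for Rarb, and 39 of 40 were within 1.25-fold (97.5%, against 96.9% of all genes). The median difference was 0.04 over the 40 receptors and 0.03 over the 28 detected ones, beside 0.00 over all genes. In KO fat 24 receptors were nominally higher and 16 lower, 60.0% higher against 50.3% of all genes.

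The wider of the ranges within a genotype exceeded the difference between genotype means for 39 of 40 receptors, Ppara being the exception. The share of all genes for which this held was not computed, so the count is not a result about the receptors. Across the 6 arrays the detected receptors had a median range of 0.37, the same as for all detected genes. The intervals therefore set how large a change could have been missed. For 33 of 40 receptors (82.5%, against 83.7% of all genes) the 95% interval lay within 1.5-fold in either direction. The 7 with wider intervals were Rarb, Nr1h3, Nr2f1 and Nr2f2 among the detected receptors, and Vdr, Pgr and Rorb among the others. The extreme bounds were 0.567-fold for Nr2f1 and 1.78-fold for Rarb.

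**Figure D2:**
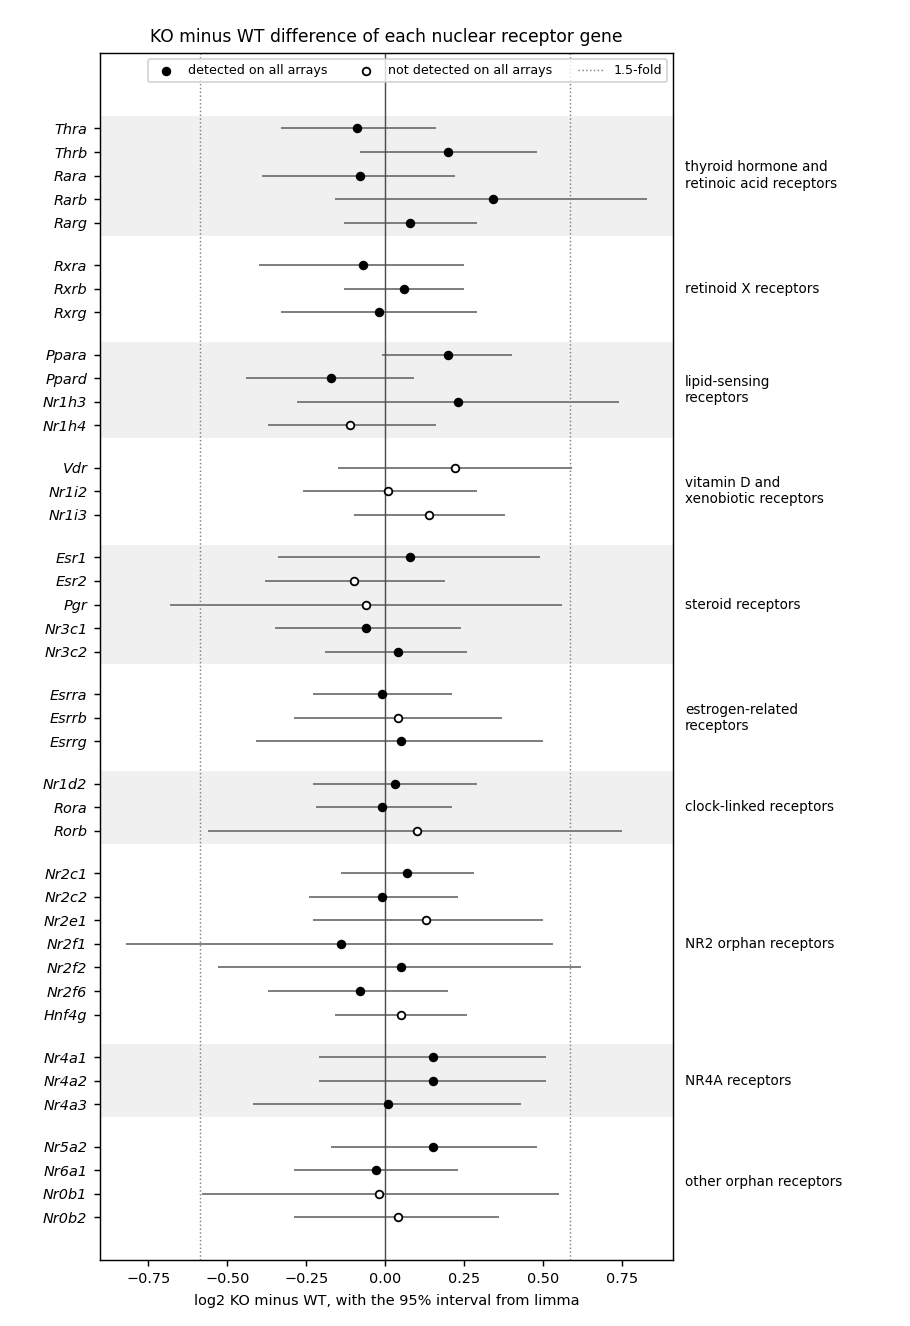
KO minus WT difference in log2 intensity for the 40 measured receptors, with the 95% interval from limma, grouped by class. Filled points are the 28 receptors detected on all arrays, open points the other 12, and dotted lines mark 1.5-fold in either direction. Every interval includes 0, and that of Ppara reaches it by the smallest margin (-0.01 to 0.40).

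The 3 KO values lay entirely above the 3 WT values for 2 receptors, Rarb and Ppara (2.08% of all genes did so), and entirely below for 0 receptors (2.53% of all genes). Ppara (probe set 10425987), the fatty acid receptor that drives fat oxidation and is itself counted among the brown fat markers, read 7.57, 7.67 and 7.70 on KO1 to KO3 and 7.48, 7.48 and 7.38 on WT1 to WT3. The lowest KO array was 0.08 above the highest WT array. The means were 7.65 ± 0.07 in KO fat and 7.45 ± 0.06 in WT fat (SD, n = 3 each), a fold of 1.15 with a 95% interval of 0.995 to 1.32. This was the smallest unadjusted p among the receptors, and its adjusted p was 1.0 (limma). Without KO3 and WT2, the arrays with the high brown fat and muscle signals, the Ppara difference was 0.19 in place of 0.20.

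Rarb (probe set 10417713), the retinoic acid receptor whose own gene retinoic acid induces, read 6.23, 6.17 and 6.90 in KO fat and 6.00, 6.16 and 6.12 in WT fat. The groups were parted by only 0.005, and KO3 alone was well above the rest. The fold was 1.26 with an interval of 0.897 to 1.78. Without KO3 the difference was 0.10 in place of 0.34, and without both KO3 and WT2 it was 0.13. KO3 shared its muscle and brown fat signals with WT2, and WT2 read 6.16 for Rarb. The start of the Rarb gene is shown because its retinoic acid response element is the textbook example for this receptor class. The stretch runs from 250 bases before to 50 bases after the start site (RefSeq, GRCm38.p6, chr14:16575427-16575726, minus strand), and capitals mark the match to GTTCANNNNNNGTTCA, whose hexamer repeats are spaced by 5 bases.
Rarb: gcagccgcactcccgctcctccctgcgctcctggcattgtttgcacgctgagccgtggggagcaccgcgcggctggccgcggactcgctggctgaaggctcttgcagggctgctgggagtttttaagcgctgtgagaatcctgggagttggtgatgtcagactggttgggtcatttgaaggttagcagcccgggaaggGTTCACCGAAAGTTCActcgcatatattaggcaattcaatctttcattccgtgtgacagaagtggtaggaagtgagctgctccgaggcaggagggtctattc
The match lies at positions -52 to -37 from the start site. On either strand this pattern was found in 25 of 32851 mouse promoters of the same length (0.0761%), and among the 39 receptors with a promoter entry it was found in Rarb alone. The match describes these letters and does not show occupancy in fat.

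**Figure D3:**
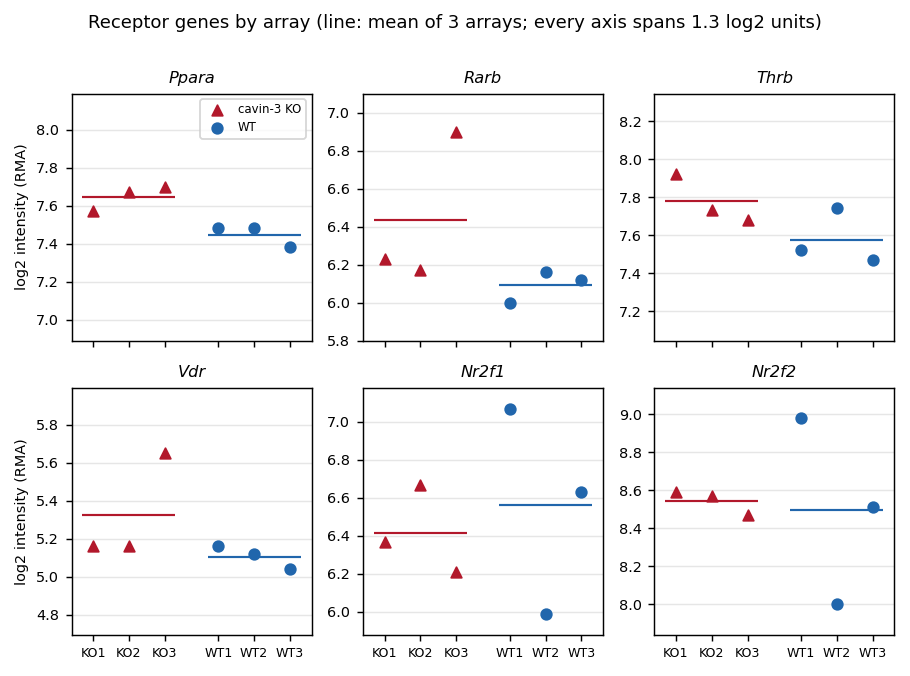
Log2 intensity of 6 receptors on each array, KO1 to KO3 as triangles and WT1 to WT3 as circles, with lines at the mean of 3 arrays and axes of equal span. Ppara and Rarb are the only receptors whose groups do not overlap, Rarb and Vdr are high on KO3 alone, and Nr2f1 and Nr2f2 are highest on WT1 and lowest on WT2.

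The other retinoic acid receptors did not follow Rarb. Rara read 7.53, 7.58 and 7.30 in KO fat and 7.63, 7.36 and 7.68 in WT fat, with KO3 and WT2 lowest in each genotype. Rarg was steady at 8.26, 8.17 and 8.23 in KO fat and 8.16, 8.04 and 8.21 in WT fat, and the groups overlapped. Among 6 measured retinoic acid targets 3 were higher and 3 lower in KO fat, none at an unadjusted p under 0.05, with a median difference of 0.03. Cyp26b1, which breaks down retinoic acid and responds to it, read 6.27, 6.37 and 6.72 in KO fat and 6.19, 6.14 and 6.26 in WT fat. Its KO values were all above the WT values and it was highest on KO3, as Rarb was (1.2-fold, interval 0.957 to 1.5). Dhrs3, which reduces retinaldehyde to retinol, had a fold of 1.14 (0.926 to 1.40), and the binding protein Crabp2 was not detected on all arrays.

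Both thyroid hormone receptors were detected. Thrb (probe set 10412882) read 7.92, 7.73 and 7.68 in KO fat and 7.52, 7.74 and 7.47 in WT fat. WT2 overlapped the KO range and the other WT arrays lay below it. The fold was 1.15 (0.947 to 1.39). Without KO3 and WT2 the difference was 0.33 and the groups no longer overlapped, with an unadjusted p under 0.05 on 2 arrays a group and an adjusted p still at 1.0 (limma). Over all genes, groups of 2 arrays also part far more often, as the shares in the closing section show. Thra, the more widely expressed form, read 9.59 to 9.85 in KO fat and 9.74 to 9.87 in WT fat. The 7 thyroid hormone targets split into 4 higher and 3 lower in KO fat with a median of 0.00. Klf9 had a fold of 1.16 (0.938 to 1.43), and Bcl3 read 7.24 to 7.32 in KO fat, all below 7.38 to 7.46 in WT fat. The deiodinases that activate or inactivate the hormone, Dio1, Dio2 and Dio3, were not detected on all arrays.

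The RXR partners differed little between genotypes. Rxrb had the narrowest range of all 40 receptors, 7.70 to 7.76 in KO fat and 7.64 to 7.72 in WT fat. Rxra read 9.54, 9.47 and 9.13 in KO fat and 9.37, 9.40 and 9.59 in WT fat, and Rxrg read 7.96 to 8.21 in KO fat and 7.93 to 8.30 in WT fat. All 3 differences lay between -0.07 and 0.06, so the groups overlapped and the intervals stayed within 1.5-fold.

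In the lipid-sensing class, Ppard, which promotes fatty acid use in many tissues, had the lowest fold of all receptors. It read 8.61, 8.65 and 8.64 in KO fat and 8.98, 8.81 and 8.64 in WT fat, so the KO arrays were tightly placed at the low end of the WT range (0.886-fold, interval 0.739 to 1.06). The liver X receptor Nr1h3, the sterol sensor of this class, read 9.51, 9.41 and 9.65 in KO fat and 8.82, 9.49 and 9.58 in WT fat. Only WT1 was low. The fold of 1.17 (0.824 to 1.67) rested on that array, and without it the difference was -0.01 in place of 0.23. The bile acid receptor Nr1h4 read 4.84, 4.80 and 4.91 in KO fat and 4.88, 4.83 and 5.15 in WT fat, under the detection level throughout.

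Targets of the PPAR and liver X receptor groups gave small differences. Pparg was not on the receptor list followed here, so the PPAR targets cannot be assigned to Ppara or Ppard. Of 12 PPAR targets 8 were higher and 4 lower in KO fat, none at an unadjusted p under 0.05, with a median of 0.02. Ehhadh, a peroxisomal oxidation enzyme and a Ppara target, read 9.28, 9.08 and 9.09 in KO fat, all above 9.06, 8.96 and 9.01 in WT fat (1.10-fold, interval 0.944 to 1.29). Ucp3 was high on KO1, KO3 and WT2, and the lipid droplet gene Cidec read 12.49 to 12.57 in KO fat and 12.30 to 12.52 in WT fat. Of 11 liver X receptor targets 8 were higher and 3 lower, also with a median of 0.02. The cholesterol exporter Abcg1 had the largest fold of that list at 1.26 (0.977 to 1.62), with 8.16, 7.84 and 8.27 in KO fat and 7.85, 7.87 and 7.55 in WT fat, so that KO2 lay within the WT range. Smpdl3a followed with 1.23 (0.941 to 1.62).

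The vitamin D and xenobiotic receptors were near or under the detection level. Vdr read 5.16, 5.16 and 5.65 in KO fat and 5.16, 5.12 and 5.04 in WT fat, so only KO3 stood out (1.16-fold, interval 0.901 to 1.5). Without KO3 the difference was 0.05 in place of 0.22. Nr1i2, which senses foreign compounds in liver and gut, read 4.92 to 5.25 in KO fat and 4.98 to 5.15 in WT fat. Nr1i3 read 4.73, 4.62 and 4.88 in KO fat and 4.54, 4.59 and 4.67 in WT fat (1.10-fold, interval 0.933 to 1.31). None of 3 vitamin D targets and none of 5 xenobiotic targets had an unadjusted p under 0.05. The calcium channel gene Trpv6 read 7.85 on KO2 and 8.29 on WT1 and 4.78 to 5.01 on the other 4 arrays, the same pair of arrays that was high in smooth muscle genes and in 3 epididymis genes.

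Among steroid receptors Esr1, Nr3c1 and Nr3c2 were detected. The estrogen receptor Esr1 read 10.03, 9.58 and 9.95 in KO fat and 9.52, 10.01 and 9.80 in WT fat, a spread of 0.51 with no order by genotype. The mineralocorticoid receptor Nr3c2 read 6.60 to 6.81 in KO fat and 6.58 to 6.71 in WT fat. Pgr, a classical estrogen target, read 4.60, 4.48 and 5.21 in KO fat and 4.52, 5.23 and 4.72 in WT fat, under the detection level on every array but highest on KO3 and WT2, the arrays with high Xist. Esr2 read 4.61 to 4.98 in KO fat and 4.83 to 4.96 in WT fat. The 7 estrogen targets split into 4 higher and 3 lower in KO fat, and Greb1 and Myb were high on KO1 alone, at 7.38 and 7.03.

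The glucocorticoid receptor Nr3c1 was level across the arrays, while the ligand supply gene Hsd11b1 and some of the receptor's targets were not. Nr3c1 read 9.36, 9.12 and 9.37 in KO fat and 9.16, 9.44 and 9.42 in WT fat (0.961-fold, interval 0.784 to 1.18). Hsd11b1, the enzyme that regenerates active glucocorticoid inside adipocytes, read 9.25, 9.18 and 6.99 in KO fat and 8.73, 7.58 and 9.60 in WT fat. Hsd11b1 was low on KO3 and WT2 and high on the other 4 arrays. Of 26 measured ligand supply genes, 5 were lower on both KO3 and WT2 than on each of the other 4 arrays. Hsd11b1 and Aldh1a1 were among these 5. Another 3 were higher on both, among them Hsd11b2, at 5.92 and 6.37. Over all detected genes the shares were 11.5% lower and 14.8% higher. H6pd was lowest on WT1, at 10.37, with 10.40 on WT2 and 10.48 on KO3. Fkbp5, a direct target and feedback chaperone of the receptor, read 8.74, 8.96 and 6.90 in KO fat and 8.68, 7.29 and 8.83 in WT fat. KO3 and WT2 were lowest again.

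Of 11 measured glucocorticoid targets, 6 were lower on both KO3 and WT2 than on each of the other 4 arrays (11.5% of all detected genes were), and 0 were higher on both (14.8%). Besides Fkbp5 these were Tsc22d3, Zbtb16, Lcn2 and the metallothioneins Mt1 and Mt2. Lcn2, an acute-phase adipokine, spanned the most, with 11.11, 9.62 and 7.33 in KO fat and 9.55, 6.53 and 10.03 in WT fat. The transcription factor Zbtb16 read 10.13, 10.46 and 9.34 in KO fat and 9.92, 9.51 and 10.05 in WT fat. The mean over the 11 targets was 10.11, 10.05 and 9.17 on KO1 to KO3 and 9.77, 9.14 and 9.85 on WT1 to WT3. This split followed the arrays with high Xist, muscle and brown fat signals and low testis germ cell signals, 1 in each genotype, and not the genotype. Ucp1, the uncoupling protein of brown and beige fat, ran the opposite way on the same arrays, at 8.75 on KO3 and 8.56 on WT2 against 4.31 to 4.52 on the others. The part of Xist status or tissue makeup in these values was not tested.

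By genotype, 9 of the 11 glucocorticoid targets were higher and 2 lower in KO fat, with a median difference of 0.15, and none passed an adjusted p of 0.05. Dusp1, a phosphatase that dampens MAP kinase signalling, was 1 of 2 pathway genes with an unadjusted p under 0.05 in limma (adjusted p = 1.0). It read 10.10, 10.49 and 9.99 in KO fat and 9.64, 9.77 and 9.87 in WT fat, so the groups did not overlap (1.35-fold, interval 1.05 to 1.74). Sgk1 read 8.12 to 8.36 in KO fat and 7.82 to 8.12 in WT fat (1.16-fold, interval 0.944 to 1.41). Its KO values were all above the WT values, by less than the rounding at the nearest pair. Klf9 is on this list and on the thyroid hormone list.

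**Figure D4:**
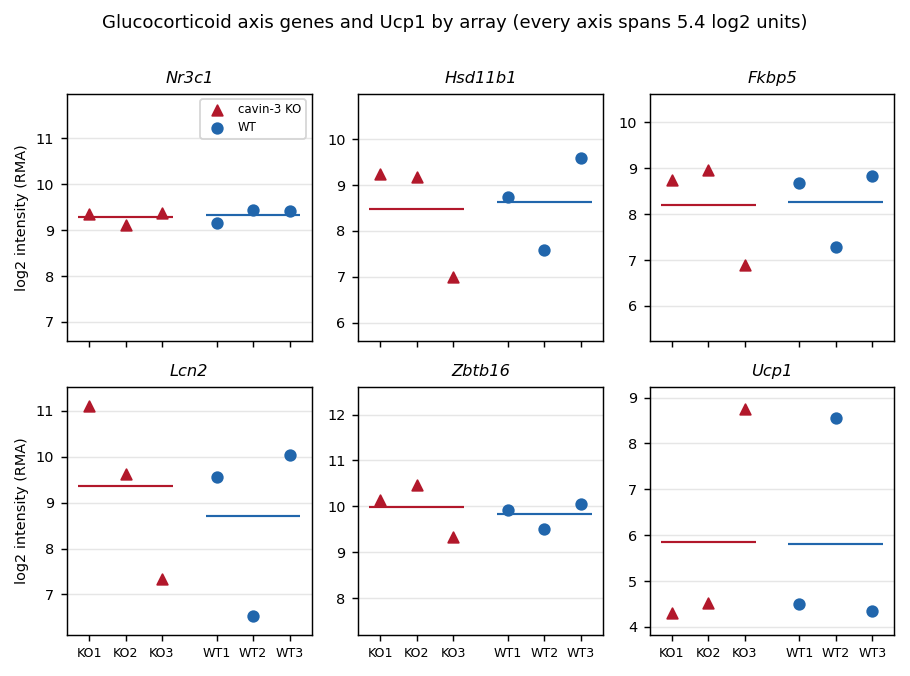
Log2 intensity of the glucocorticoid receptor Nr3c1, the enzyme gene Hsd11b1, the targets Fkbp5, Lcn2 and Zbtb16, and Ucp1 on each array, KO1 to KO3 as triangles and WT1 to WT3 as circles, with lines at the mean of 3 arrays and axes of equal span. Nr3c1 stays between 9.12 and 9.44, the next 4 genes are lowest on KO3 and WT2, and Ucp1 is highest on those 2 arrays.

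The estrogen-related receptors, orphan regulators of mitochondrial genes, showed no order by genotype. Esrra read 7.25, 7.25 and 7.41 in KO fat and 7.27, 7.40 and 7.28 in WT fat, highest on KO3 and WT2. Esrrg read 6.33, 5.87 and 5.66 in KO fat and 6.04, 5.73 and 5.95 in WT fat, lowest on those 2 arrays. Of 9 targets of this class 3 were higher and 6 lower in KO fat, with a median of -0.02. By array, 4 of the 9, Esrra among them, were higher on both KO3 and WT2 than on each of the other 4 arrays. None was lower on both, and over all detected genes the shares were 14.8% higher and 11.5% lower. Cycs, the cytochrome c gene, was the other pathway gene with an unadjusted p under 0.05, at 10.98, 11.06 and 11.06 in KO fat and 11.64, 11.61 and 11.07 in WT fat (0.756-fold, interval 0.573 to 0.996, limma, adjusted p = 1.0). WT3 was next to the KO arrays, and the other 2 WT arrays were higher. Cox5a was also lower on all KO arrays, by less than the rounding at the nearest pair, at 8.64 to 9.0 on the KO arrays and 9.0 to 9.37 on the WT arrays (0.842-fold, interval 0.651 to 1.09).

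The clock-linked receptors Nr1d2, a repressor in the circadian clock, and Rora, its activating counterpart, differed by 0.03 and -0.01. Nr1d2 read 9.68, 9.52 and 9.85 in KO fat and 9.63, 9.62 and 9.72 in WT fat. Rora read 8.24 to 8.37 in KO fat and 8.25 to 8.42 in WT fat, within 0.18 of each other. Rorb, which is best known from retina and brain, read 4.19, 5.01 and 4.66 in KO fat and 4.89, 4.58 and 4.10 in WT fat, a wide scatter below the detection level. Of 6 clock targets of these receptors 4 were higher and 2 lower in KO fat. Dbp read 9.79 to 9.98 in KO fat and 9.36 to 9.99 in WT fat, and Arntl read 6.06 to 6.12 in KO fat and 5.92 to 6.55 in WT fat.

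Of the NR2 orphans, the COUP transcription factors Nr2f1 and Nr2f2 had the widest scatter of all receptors. Both act in the development of vessels, nerves and organs. Nr2f1 read 6.37, 6.67 and 6.21 in KO fat and 7.07, 5.99 and 6.63 in WT fat, and Nr2f2 read 8.59, 8.57 and 8.47 in KO fat and 8.98, 8.0 and 8.51 in WT fat. For both genes WT1 was highest and WT2 lowest, so that the WT mice spanned more than the KO mice. WT1 was high in smooth muscle genes and in 3 epididymis genes, and WT2 was high in skeletal muscle, brown fat and urothelium genes. Their part in these values was not tested. Without WT1 the Nr2f1 difference was 0.11 in place of -0.14, and without WT2 the Nr2f2 difference was -0.20 in place of 0.05.

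The testicular receptors Nr2c1 and Nr2c2 read 7.79 to 7.88 and 8.57 to 8.75 in KO fat, and 7.68 to 7.86 and 8.58 to 8.76 in WT fat. Nr2f6 read 6.57 to 6.88 in KO fat and 6.74 to 6.96 in WT fat. Nr2e1 and Hnf4g, which are known from neural stem cells and from gut and kidney, stayed below the detection level in both genotypes. All NR2 groups overlapped.

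The NR4A receptors, early-response genes that need no ligand, were all detected. Nr4a1 read 7.56, 7.23 and 7.03 in KO fat and 7.24, 7.10 and 7.04 in WT fat, and Nr4a2 read 6.99, 7.16 and 7.42 in KO fat and 7.18, 7.11 and 6.83 in WT fat. Both folds were 1.11 (0.862 to 1.42). The highest array was KO1 for Nr4a1 and KO3 for Nr4a2, and each group pair overlapped. Nr4a3 read 5.36 to 6.03 in KO fat and 5.61 to 5.74 in WT fat.

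The remaining orphans were near or below the array median. Nr5a2, which controls steroid and bile acid genes, read 6.10, 5.84 and 6.30 in KO fat and 5.88, 6.02 and 5.88 in WT fat (1.11-fold, interval 0.888 to 1.39). Nr6a1, known from germ cells and embryos, read 6.35 to 6.65 in KO fat and 6.53 to 6.63 in WT fat. Nr0b1 and Nr0b2 lack a DNA-binding domain and repress other receptors. Nr0b1 read 3.96, 4.10 and 4.07 in KO fat and 3.76, 3.81 and 4.62 in WT fat, and only WT3 stood out. Nr0b2 read 4.41 to 4.89 in KO fat and 4.60 to 4.68 in WT fat.

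Seen by array and not by genotype, 6 of the 28 detected receptors were lower on both KO3 and WT2 than on each of the other 4 arrays. These were Thra, Rara, Esrrg, Nr2c2, Nr2f1 and Nr2f2. Another 4, Nr3c2, Esrra, Nr4a3 and Nr6a1, were higher on both. Over all detected genes the shares were 11.5% lower and 14.8% higher.

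The proteins that receptors recruit were measured as well. All 13 coactivators were detected, 9 higher and 4 lower in KO fat with a median of 0.06 and none at an unadjusted p under 0.05. The arginine methyltransferase gene Carm1 read 9.25 to 9.34 in KO fat, all above 9.19 to 9.23 in WT fat. Ppargc1b, a partner of PPAR and estrogen-related receptors, read 6.66, 6.92 and 7.15 in KO fat and 7.03, 7.20 and 7.08 in WT fat (0.876-fold, interval 0.692 to 1.11), and Ncoa3 had a fold of 1.15 (0.887 to 1.5). All 7 measured corepressors were detected, 4 higher and 3 lower, with a median of 0.02. The corepressor subunit Gps2 read 8.78, 8.79 and 8.67 in KO fat and 8.43, 8.43 and 8.77 in WT fat (1.15-fold, interval 0.944 to 1.41).

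Among 26 measured genes of ligand supply 12 were higher and 14 lower in KO fat, with a median of -0.03. The fatty acid carrier Fabp5 read 9.76, 9.70 and 9.72 in KO fat and 9.64, 10.54 and 10.02 in WT fat. It was highest on WT2 and next highest on WT3 (0.787-fold, interval 0.545 to 1.14). Dio3, which inactivates thyroid hormone, read 4.58 to 4.86 in KO fat and 4.84 to 5.0 in WT fat (0.848-fold, interval 0.711 to 1.01), below the detection level. In all, 113 of 128 listed coregulator, ligand and target genes were measured, and 0 passed an adjusted p of 0.05 in limma. At an unadjusted p under 0.05 the count was 2, Dusp1 higher and Cycs lower in KO fat, which is 1.77% of the 113 and close to the 1.95% of all probe sets. Several of the 113 were named above because their groups did not overlap, and no total over the 113 was made. Over all genes, the KO values lay entirely above the WT values for 2.08% and entirely below for 2.53%.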

How the data were processed

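Total RNA from 3 cavin-3 KO and 3 WT adipose tissues was hybridised to 6 arrays. The authors normalised the arrays by RMA in GenePattern modules and deposited linear intensity values, of which log2 was taken here. The RMA version, genome build and annotation release were not given in the sources used here. RMA makes the arrays alike in overall distribution (median intensity 67.1 to 70.8), so a shift of all genes would not be seen. Of 34760 probe sets 21640 had 1 gene symbol, 1321 several and 11799 none in the platform annotation used. Each gene was read from its single-symbol probe set with the highest mean, and each of the 40 receptors had only 1.

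KO was compared with WT over all probe sets with limma 3.58.1 (lmFit, eBayes, Benjamini-Hochberg) in R 4.3.3, with tables in Python 3.11.15 (pandas 2.3.3, numpy 2.4.6). The fit was tested on simulated data. Intervals are 95% and come from that fit. Precision is limited by having 3 arrays a group. The mice were littermates but their litters are not given, so litter could not be entered in the fit. The p-values weigh the genotype difference only against the spread between these mice within a genotype. In limma, eBayes draws that spread for each probe set towards its usual value over all probe sets. Values on every array are given for receptors with groups that did not overlap and for the 12 with the smallest p. They are also given for the 8 with the widest range and at least 1 of each class. Up to 3 genes of the smallest p are named from each pathway list except the estrogen, vitamin D and xenobiotic lists. Other genes named for a pattern across arrays (Hsd11b1, Fkbp5, Lcn2, Zbtb16, Ucp1, Greb1, Myb, Trpv6 and others) were chosen after their values were seen. Members and lists were chosen with earlier results of these data known. Promoter sequences are from RefSeq (GRCm38.p6), where 39 of 42 receptors matched. Alternatives covered the normalisation, the filter, the probe set choice, the variance model, blocks and left-out arrays.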

Additional observations from a re-analysis of the deposited data

How the results depend on the processing

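No receptor passed an adjusted p of 0.05 under any alternative run, the median difference over the receptors ran from 0.00 to 0.05, and the number detected was 23 to 29 over the detection rules tried. The number of receptors at an unadjusted p under 0.05, 0 as reported, was 1 with the methods' t-test (log2 or linear scale, 2.18% and 2.17% of all probe sets), on single-symbol probe sets alone (1.12%) and with the mean over probe sets (1.07%), Ppara each time. It was 2 with array weights (Thrb and Ppara, 3.16%) and 1 without the 2 arrays with high Xist (Thrb, 2.87%). The number whose groups did not overlap, 2 as reported, was 9 without the 2 arrays with high Xist (28.2% of all genes) and 8 without the 2 arrays with high epididymis genes (25.6%), since fewer arrays overlap less often, and 4 to 7 when each array was left out in turn (9.93% to 15.1% of genes). The sign of the difference changed for at most 8 of 40 receptors in any setting, among them Nr1h3, Nr2f1 and Nr2f2 without 1 WT array each.

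The cavin-3 difference kept its direction but lost its call in several settings. It was -3.57 with the methods' t-test on the log2 scale and -3.60 on the linear scale (adjusted p = 1.0 each), -3.46 without the 2 arrays with high Xist (adjusted p = 0.391) and -3.72 without the 2 with high epididymis genes (adjusted p = 0.444) in limma, and -3.78 to -3.35 when each array was left out in turn. Leaving out any array but WT1 ended the call (limma adjusted p = 0.0722 to 0.509). The cause was not tested beyond the smaller number of arrays. Replicate numbers did not pair the samples: deviations of same-numbered arrays correlated at -0.15, -0.37 and -0.09. With the replicate number as a block the cavin-3 difference was -3.57 (limma adjusted p = 0.681) and 0 receptors were called.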
